A study of Mus musculus with 2 samples.

Results

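The MYC, MAX and MXD network was measured in the established mouse erythroleukemia line MEL through the RNA of the 10 genes that encode its members. The genes were chosen by name and matched by identifier: the MYC family (Myc, Mycn and Mycl), the shared partner Max, the repressive partners Mxd1, Mxd3, Mxd4 and Mxi1, and the larger repressors Mnt and Mga. All 10 were listed among the 43346 genes of the files, and 8 had reads. Polyadenylated RNA was sequenced single-end in 2 libraries of 1 group, which the labels call biological replicates 1 and 2. The labels name the line and that it is immortalized and leukemic, but give no treatment, inducer, culture condition or age, and there is no control group and no differentiated sample. So the data give the level of each gene and how far the replicates lie apart, and a p-value below compares 2 libraries by counting error, not conditions. Replicate 1 held 67735380 and replicate 2 held 79923143 expected counts, the reads assigned to genes by a model, so a gene with 0 counts may still hold up to 4.43e-06% and 3.75e-06% of them (3 counts, counting error only).

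MYC proteins bind DNA as a pair with MAX, through a basic helix-loop-helix leucine zipper, at E-box sites, and recruit coactivators that raise transcription of genes for ribosome production, metabolism and division. MXD proteins, MNT and MGA compete for the same partner and bind the same sites, and most of them recruit the SIN3 and histone deacetylase corepressors. In erythroleukemia cells that are induced to differentiate, MYC is known to decline and MXD members to rise, which these samples cannot show.

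Of the lineage markers, 11 of 12 erythroid genes reached 1 TPM (a relative transcript level corrected for length) in both replicates, with a summed level of 1153.5 TPM in replicate 1 and 1910.9 TPM in replicate 2. The exception was Slc4a1, which encodes the anion exchanger of late red cells, at 0.480 and 0.260 TPM. Megakaryocyte genes reached that level for 4 of 6 (summed 169 and 252 TPM, most of it Pf4), myeloid genes for 1 of 8 (2.88 and 3.52 TPM, with Ctsg and Irf8 at 0 counts), stromal genes for 1 of 5 (1.61 and 2.22 TPM), and B and T lymphoid genes for 0 of 4 each (at most 0.490 TPM summed). In bulk RNA, fewer cells of a type and less RNA per cell cannot be told apart.

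Transcripts of 3 members differ in their coding start or by an exon, and the results on transcripts below turn on those differences. For Mxi1, whose forms differ in their first coding exon, the first 30 coding bases of the 3 annotated transcripts are shown 5′ to 3′ on the plus strand of mm10, with the start codon in capitals.
Mxi1-201, distal start, chr19:53310700-53310729: ATGggcaaacgcgggcggccgcgcaaggag
Mxi1-203, proximal start, chr19:53329648-53329677: ATGgagcgggtgcggatgatcaacgtgcag
Mxi1-202, proximal start, chr19:53331386-53331415: ATGccgagcccccggctacagcactcgaag

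For Myc, the annotation gives a coding start at a CTG codon in the first exon and another at an ATG codon in the second, and the longer frame adds 15 codons at the protein's start. The first 30 coding bases of each follow, with the start codon in capitals, on the plus strand of mm10.
Myc-201, chr15:61985922-61985951: CTGgatttcctttgggcgttggaaaccccg
Myc-205, chr15:61987522-61987551: ATGcccctcaacgtgaacttcaccaacagg

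For Max, the long and short forms differ by 1 exon of 27 bases (chr12:76961263-76961289, minus strand), which adds 9 codons before the DNA-binding region. The junction is shown with 12 coding bases on each side, and the extra exon is in capitals.
Max-202, with the exon: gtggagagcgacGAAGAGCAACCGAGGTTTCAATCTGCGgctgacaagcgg
Max-201, without it: gtggagagcgacgctgacaagcgg

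The E-box CACGTG, which reads the same on both strands, is the site that MYC and MAX pairs and MXD and MAX pairs bind. It was searched in windows from 250 bases before to 50 bases after RefSeq gene starts (GRCm38.p6), which exist for 9 of the 10 members, Myc being the exception. Of those 9 genes, Mxd4, Mnt and Max held it, or 3 of 11 windows, while 2349 of 32851 windows of all genes held it (7.15% of windows and 8.09% of genes). Among 24 genes activated by MYC with a window, 7 held it (29.2%). The other lists described below ranged widely. None of 11 genes that control Myc transcription and mRNA and none of 7 other E-box factors held it, against 2 of 3 genes of the MLX branch. The stretches around the motif are shown 5′ to 3′ on the strand of the gene, with the motif in capitals.
Mxd4, 219 bases before the start, chr5:34187892-34187960, minus strand: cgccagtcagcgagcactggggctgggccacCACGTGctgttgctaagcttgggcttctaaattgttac
Mnt, 123 bases before the start, chr11:74830769-74830838, plus strand: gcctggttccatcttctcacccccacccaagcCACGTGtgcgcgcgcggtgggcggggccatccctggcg
Max, 3 bases before the start and reaching over it, chr12:76962246-76962283, minus strand: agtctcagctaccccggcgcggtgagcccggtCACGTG

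The windows of Mga, Mycl, Mycn, Mxd1, Mxd3 and Mxi1 (3 windows for Mxi1) did not hold these 6 letters. A match describes the sequence only, since no binding was measured in these samples.

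Of the 10 genes, 8 reached 1 TPM in both replicates, where 46.8% of the 21474 protein-coding genes did. At 10 TPM in both replicates there were 5 of the 10, and 6742 of the 21474 protein-coding genes. By mean level the order was Myc, Max, Mga, Mnt, Mxi1, Mxd4, Mxd3 and Mxd1, with Mycn and Mycl at 0. Neighbours in this order were called separated when every value of one lay above every value of the other. This held for all neighbours except Mnt and Mxi1, whose means differed 1.07-fold, Mxd4 and Mxd3, whose means differed 1.41-fold, and the pair at 0. A single gene, Myc, took 52.7% of the summed TPM of the 10 genes in replicate 1 and 58.0% in replicate 2, and Max took 27.8% and 19.7%.

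**Figure D1:**
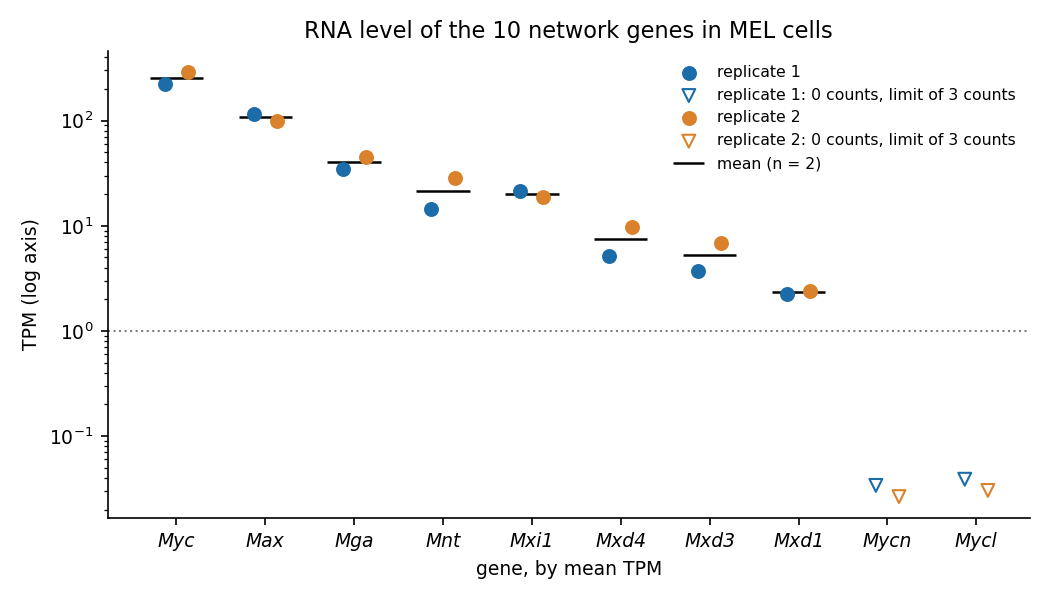
Level of each of the 10 genes in TPM (log axis) in replicate 1 (blue) and replicate 2 (orange), with the mean of the 2 as a black bar; open triangles mark the level that 3 counts would give where a gene had 0 counts, and the dotted line marks 1 TPM. Myc stood highest in both replicates, at 221 and 290 TPM, and Mycn and Mycl had 0 counts.

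The MYC family was represented by Myc alone. Myc, at chr15:61985391-61990374 on the plus strand, measured 221 TPM in replicate 1 and 290 TPM in replicate 2 (256 ± 48.2, SD, n = 2), from 21000 and 29671 expected counts. Its mean level was above that of 97.6% of protein-coding genes. Mycn (chr12:12936093-12941914, minus strand), the family member best known from neural and embryonic tissue, had 0 counts in both replicates. A floor of 3 counts per library would be 0.0340 TPM in replicate 1 and 0.0266 TPM in replicate 2 for Mycn, so by counting error alone Myc was at least 6510-fold and at least 10878-fold higher. The deposited upper credibility bounds of Mycn, which follow from the model of read assignment, were wider at 0.120 and 0.0933 TPM. Mycl (chr4:122995652-123002485, plus strand), known from lung cancer and dendritic cells, also had 0 counts. Its floor was 0.0389 and 0.0305 TPM, and by counting error alone Myc was at least 5686-fold and 9500-fold higher. The deposited upper credibility bounds of Mycl were 0.293 and 0.231 TPM, so the folds at those bounds would be smaller for both genes.

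Max (chr12:76937269-76962201, minus strand), the shared partner of MYC, MXD, MNT and MGA proteins, measured 117 TPM in replicate 1 and 98.4 TPM in replicate 2 (108 ± 12.9, SD, n = 2). Its counts were 10481 and 11271, and 93.7% of protein-coding genes stood lower. Myc RNA exceeded Max RNA 1.90-fold in replicate 1 and 2.94-fold in replicate 2, a mean log2 ratio of 1.24 ± 0.45 (SD, n = 2). The sign was the same in both replicates and the size was not. The summed TPM of the MYC family and the 6 repressors was 2.60-fold and 4.07-fold that of Max, so in RNA the genes that pair with Max outnumbered it in both libraries. RNA levels do not give protein levels, which were not measured.

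Among the MXD genes, Mxi1 (chr19:53310518-53375810, plus strand) was highest, at 21.3 TPM in replicate 1 and 18.7 TPM in replicate 2 (19.995 ± 1.85, SD, n = 2). Mxd4 (chr5:34173883-34187720, minus strand) followed at 5.19 and 9.70 TPM (7.45 ± 3.19), with replicate 2 the higher. Mxd3 (chr13:55325168-55329823, minus strand), known for expression in cells in S phase, was at 3.70 and 6.88 TPM (5.29 ± 2.25). Mxd1 (chr6:86647042-86669161, minus strand), the member best known for its rise in differentiating blood cells, was lowest at 2.25 and 2.40 TPM (2.33 ± 0.106). The values of Mxi1, Mxd4 and Mxd1 did not overlap with each other. Mxd4 was above Mxd3 within each replicate (log2 ratio 0.48 and 0.49), although the ranges of the pair overlapped between replicates. Mxi1 supplied 65.7% of the summed MXD TPM in replicate 1 and 49.6% in replicate 2.

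Strand use in the counting is not given in the sources used here, and 3 of these genes share exon bases with a gene on the other strand. Mxd3 shares 105 exon bases with Prelid1, which had 322 and 546 TPM, far above the level of Mxd3. Mxi1 shares 194 with Gm10197 (21.9 and 69.6 TPM) and Mxd4 shares 514 with Gm42846, which was not among the quantified genes and so has no level. Part of the values of Mxd3, Mxi1 and Mxd4 may come from these partners, and this was not tested.

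Of the larger repressors, Mnt (chr11:74830920-74845725, plus strand), a widely expressed antagonist of MYC, measured 14.5 TPM in replicate 1 and 28.2 TPM in replicate 2 (21.3 ± 9.69, SD, n = 2). The values of Mxi1 lay between these, so Mnt was below Mxi1 in one replicate and above it in the other. Mga (chr2:119897228-119969581, plus strand), which also carries a T-box domain and belongs to a polycomb complex, measured 34.8 and 45.3 TPM (40.0 ± 7.44). It was the highest repressor in both replicates when all its transcripts were summed. With coding transcripts alone, an alternative chosen after seeing the data, Mga was at 26.9 and 11.3 TPM (19.1 ± 11.0), so in replicate 2 it was below Mnt and Mxi1.

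The 6 repressors together measured 81.7 TPM in replicate 1 and 111 TPM in replicate 2, which was 0.369-fold and 0.384-fold the level of the MYC family. The log2 ratio was -1.44 and -1.38 (mean -1.41 ± 0.04, SD, n = 2), so the MYC side was higher in both replicates, with a small spread. With coding transcripts alone the repressors summed to 73.5 and 76.5 TPM and the ratio was 0.332 and 0.264 (log2 mean -1.76 ± 0.23). The 4 MXD genes alone, at 32.4 and 37.7 TPM, were 0.146-fold and 0.130-fold the MYC level (log2 mean -2.85 ± 0.12). Every version put Myc RNA above that of its antagonists.

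The replicates differed broadly over all genes, and the members were read against that spread. Rounded expected counts were compared by a two-sided exact binomial test with TMM scaling and Benjamini-Hochberg adjustment over 15251 genes, and a gene was called at an adjusted p under 0.05 and at least 2-fold. By this rule 19.7% of the tested genes were called, 8.06% higher in replicate 2 and 11.7% lower. Which direction led depended on the scaling, since library totals in place of TMM gave 1705 higher and 1427 lower genes. The median gene differed 1.51-fold, and the ratio moved with GC content: the trend over genes was a log2 ratio of -1.02 at a GC content of 39.4% and 0.81 at 59.6%. Of the 8 members with reads 2 were called, Mnt and Mxd4, both higher in replicate 2, a share near that of all genes.

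Mnt had 2580 counts in replicate 1 and 7433 in replicate 2, or 38.1 and 93.0 CPM (counts relative to library size, without TMM scaling). The count ratios of members given here and in the next paragraph are after TMM scaling. The difference was 2.27-fold (log2 1.18, counting SE 0.033, adjusted p = 1.77e-313 in the exact binomial test), and 87.0% of tested genes differed less. Mnt is the member richest in GC, at 59.5%, and with the GC trend removed its log2 ratio was 0.38 and it was not called. Mxd4 had 836 and 2125 counts, or 12.3 and 26.6 CPM. It was just inside the threshold at 2.002-fold (log2 1.00, counting SE 0.059, exact binomial adjusted p = 1.04e-69). Its GC content of 49.9% lies where the trend is near 0, and its log2 ratio was 0.97 with the trend removed, or 1.95-fold, just outside. With the trend removed 8.22% of 15102 genes with a GC value were called, and 0 of the 8 members.

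Mga was just outside the threshold at 1.997-fold lower counts in replicate 2 (17226 and 10949 counts, log2 -0.998). It is the member poorest in GC, at 42.2%, and the log2 ratio was -0.22 with the trend removed. Mxd3, with 223 and 524 counts, differed 1.85-fold (log2 0.89, exact binomial adjusted p = 4.13e-15), and by 0.21 on the log2 scale with the trend removed. The other members with reads differed by less than the median gene. Myc was at a log2 count ratio of 0.15 (exact binomial adjusted p = 2.99e-32), Max at -0.24 (8.08e-34) and Mxi1 at -0.18 (4.74e-10). Mxd1 was at 0.10 (exact binomial adjusted p = 0.281). With the GC trend removed, the sign turned for Myc (-0.26), Mxi1 (0.19) and Mxd1 (-0.003), so no direction between the replicates is given for these genes.

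**Figure D2:**
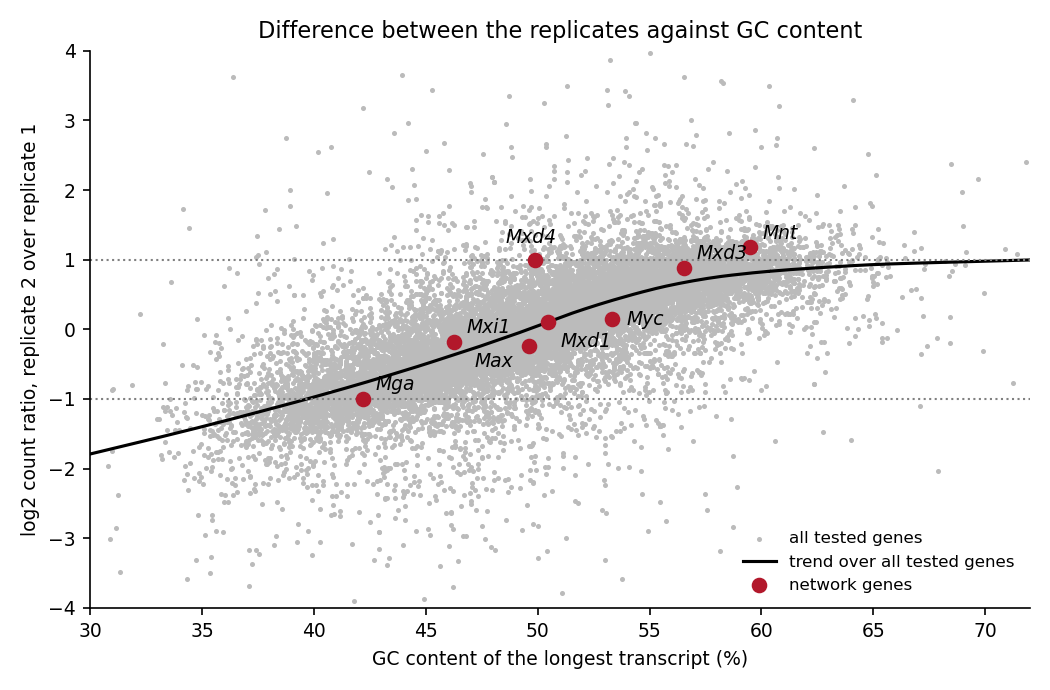
Log2 ratio of counts, replicate 2 over replicate 1, against the GC content of the longest transcript for tested genes (grey), with the trend over all of them (black line) and the 8 network genes with reads (red); dotted lines mark 2-fold, and 175 of 15102 genes lie outside the drawn range. Mga (42.2% GC) is at -0.22 and Mnt (59.5% GC) at 0.38 relative to the trend, while Mxd4 (49.9% GC) lies above it by 0.97.

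A TPM can move apart from the count when reads are assigned to transcripts of other lengths. For Mga, counts were lower in replicate 2 (log2 -0.998) while TPM was higher (log2 0.38), and the effective length given for the gene was 10759 bases in replicate 1 and 4109 in replicate 2. For Myc the effective length was 2058 and 1740 bases, and the log2 ratio was 0.39 in TPM against 0.15 in counts. The direction of the difference in Mga therefore depended on the unit. The transcripts behind these lengths are given next, as shares of the TPM of each gene.

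Mxi1 had the most even split between the replicates. The transcript with the proximal start and 192 codons, Mxi1-202, took 70.8% of the TPM of the gene in replicate 1 and 72.6% in replicate 2 (71.7% ± 1.27, SD, n = 2). The transcript with the distal start, Mxi1-201, with 295 codons and a start 18940 bases upstream, took 27.3% and 25.9% (26.6% ± 1.01). Mxi1-203 has 228 codons. From its length alone it is taken to be the strong repressive form with a SIN3 interaction domain, which Mxi1-202 lacks. No protein sequence was checked, and whether Mxi1-201 carries that domain was not examined. Mxi1-203 took 1.92% and 1.498%. This transcript was below the 5% used to choose transcripts and is named because the other proximal form lacks its 36 codons. The order of the 3 transcripts was the same in both replicates, and the range of Mxi1-202 did not overlap with that of Mxi1-201. None of the 3 Mxi1 transcripts has the same version in the annotation used for these structures and in the one behind the values: Mxi1-201 is 2627 and 5156 bases long in the 2, Mxi1-203 2340 and 4843, and Mxi1-202 5036 and 4996. The bases that told them apart in the quantification are therefore not known here.

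The forms of Max were at similar shares. The long form Max-202 (160 codons) took 57.1% in replicate 1 and 42.1% in replicate 2 (49.6% ± 10.6, SD, n = 2), and the short form Max-201 (151 codons) took 42.9% and 57.9% (50.4% ± 10.6). The leading form changed between the replicates, so the forms were not separated. In TPM, the long form was at 66.6 and 41.5 and the short form at 50.1 and 57.0. Both forms were thus above the level of every repressor except Mga, whose value of 45.3 TPM in replicate 2 exceeded the long form there.

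For Myc, transcripts that begin in the first exon took 72.3% of TPM in replicate 1 and 82.8% in replicate 2 (77.6% ± 7.38, SD, n = 2). The transcript Myc-202, which has the ATG start, led in replicate 1 with 40.0% and took 17.1% in replicate 2. Myc-204, which lacks the first exon, took 26.4% and 15.7%. Myc-208, a model of 1362 bases that holds little more than the coding sequence, was at 0 in replicate 1 and led replicate 2 with 35.1%, and Myc-206 was at 0 and 12.7%. The sequence of Myc-208 lies whole inside 2 other Myc transcripts. Myc-201 and Myc-205 have the same sequence in the annotation used for structures and differ there only in the coding start. By that sequence no read can tell them apart. Myc-205 has another version in the annotation behind the values, at the same length of 2338 bases, and that sequence was not checked. The 2 transcripts took 16.2% each in replicate 1, and 5.40% and 12.1% in replicate 2 (32.4% and 17.5% together). Transcripts annotated with the longer frame from the first exon summed to 16.2% and 53.6% of TPM, and those with the frame from the second exon to 82.6% and 44.9%. By counts the longer frame took 18.0% and 47.2% and the other frame 81.8% and 52.5%, so by counts the second-exon frame led in both replicates. Since Myc-201 and Myc-205 belong to different frames and have the same sequence in the annotation used for structures, neither order in replicate 2 is settled by these values.

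Mga differed most in its transcripts. Mga-204 (3042 codons) took 43.8% in replicate 1 and 3.76% in replicate 2, and Mga-202 (2833 codons) took 27.2% and 16.4%. Shorter transcripts with no coding sequence followed: Mga-208, of 739 bases, had 13.4% and 28.5%, Mga-209 had 0 and 24.6%, Mga-205 had 5.76% and 13.7%, and Mga-213 had 0.547% and 5.43%. Together the noncoding transcripts took 22.8% and 75.1% of the TPM of Mga, but 2.28% and 20.5% of its counts. By counts the coding transcripts led in both replicates, and by TPM only in replicate 1.

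The other repressors were led by 1 transcript in both replicates. Mxd1 had a single transcript. Mxd3-201 took 94.6% and 97.4% of the TPM of its gene, with 5.68% and 2.76% for Mxd3-203, which retains an intron. Mxd4-201 (209 codons) took 87.7% and 96.1%, and Mxd4-202 (199 codons) 12.1% and 3.81%. Mnt-201 (591 codons) took 82.8% and 98.2%, while Mnt-202, a fragment of 622 bases, took 16.6% in replicate 1 and 0 in replicate 2. Codon numbers are those of GENCODE M21, as are the exons and coding sequences shown, whereas the values were made with GENCODE M4, and 25 of the 45 transcripts of the members carry the same version in both.

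**Figure D3:**
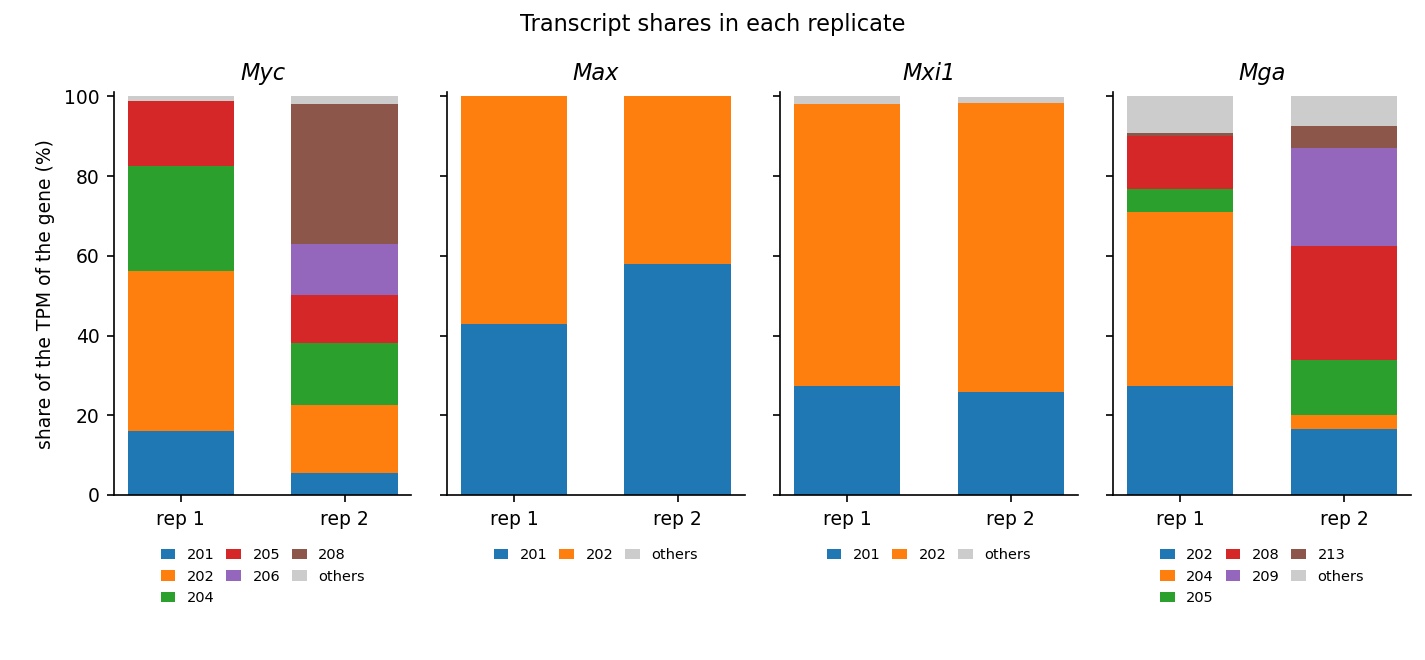
Share of the TPM of Myc, Max, Mxi1 and Mga taken by each transcript (numbered as in the annotation) in each replicate, in percent; grey holds transcripts under 5% in both replicates. The bars of Mxi1 are nearly the same in both replicates (70.8% and 72.6% for 202), whereas 208 of Myc appears only in replicate 2 (35.1%) and 204 of Mga shrinks from 43.8% to 3.76%.

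Genes that work beside or under the network were read from lists that were drawn up by role. Of 109 such genes, 102 reached 1 TPM in both replicates, against 46.8% of protein-coding genes. The lists were chosen with earlier results of these data known, so this share is a description and not a test. The median level of detected protein-coding genes was 23.0 TPM. In the MLX branch, which runs parallel to MAX and responds to glucose, Mlx was at 38.8 ± 5.91 TPM (SD, n = 2), its partner Mlxip at 13.6 ± 2.45, and Mlxipl, the liver partner, at 0.03 and 0 TPM. Mlx was thus below Max in both replicates, and 0 of its 2 tested genes were called.

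The MYC coactivators were all detected, 12 of 12, with a median of 73.8 TPM and 0 called between replicates. Ruvbl2 and Ruvbl1, helicases of chromatin remodelling complexes, were highest at 337 ± 149 and 162 ± 24.9 TPM (SD, n = 2), followed by Actl6a at 103 ± 9.09. The acetyltransferase Kat5 was lowest at 24.3 ± 5.16 TPM. Even the lowest coactivator was above each of the 4 MXD genes by mean level.

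The corepressors that MXD proteins recruit were also all detected, 12 of 12, with a median of 65.9 TPM. Rbbp7, a histone-binding subunit, was highest at 461 ± 65.8 TPM (SD, n = 2), Hdac2 was at 377 and 112 TPM and Ncor1 at 164 ± 25.7. The lowest were Sap130 at 23.9 ± 8.70 and Sap18 at 17.0 ± 2.93. Hdac2 was the only one called, lower in replicate 2 (log2 -1.47), and its log2 ratio was -0.68 with the GC trend removed, which ended the call. Apart from Sap18, each corepressor had a higher mean than each of the MXD genes that use them.

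Of the partners of MGA in its polycomb complex, 8 of 9 were detected, with a median of 36.5 TPM. Tfdp1 was highest at 292 ± 42.5 TPM (SD, n = 2), and E2f6, the factor that brings the complex to DNA together with MGA, was at 56.4 ± 14.1. Between the replicates 4 of 9 were called, where 19.7% of all tested genes were. Cbx3 (312 and 134 TPM) and Rnf2 (45.7 and 20.8 TPM) were lower in replicate 2, and Ring1 (10.5 and 21.7 TPM) and Rybp were higher. Rybp was near 0 at 0.03 and 0.22 TPM and was the only one of these 4 still called with the GC trend removed.

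Genes that control the MYC protein were all detected, 12 of 12, with a median of 53.3 TPM. Set, an inhibitor of a phosphatase that acts on MYC, was at 530 ± 188 TPM (SD, n = 2), the ubiquitin ligase Huwe1 at 266 ± 4.37 and the kinase Aurka, which shields the MYCN protein from decay, at 95.8 ± 24.7. Fbxw7, the ligase subunit that recognises phosphorylated MYC, was at 11.2 ± 3.06, and Usp28, which counters it, at 7.55 ± 0.750. Cip2a, an inhibitor of the same phosphatase, was called lower in replicate 2 (log2 -1.20), and was not called with the GC trend removed.

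Genes that control Myc transcription and mRNA were detected for 12 of 13, with a median of 81.7 TPM and 0 of 12 tested called. Hnrnpk was highest at 1235 ± 247 TPM (SD, n = 2), Cnbp at 502 ± 43.4 and Ctnnb1, beta-catenin, at 173 ± 54.6. Its partner Tcf7l2 was at 9.57 ± 0.34. Igf2bp1, which stabilises Myc mRNA in embryonic and tumour cells, was at 0.01 and 0.03 TPM.

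Of 30 genes activated by MYC, 29 were detected, with a median of 234 TPM, the highest of the lists. Ptma was at 5069 and 3424 TPM, the nucleolar gene Npm1 at 5795 and 2425, and Ldha, of lactate production, at 1819 ± 213 (SD, n = 2). The lowest were Shmt1 at 36.7 ± 6.26 and Tert, the telomerase subunit, at 0.760 and 1.11 TPM. Between the replicates 7 of 30 were called, a share near the background. Srm (291 and 580 TPM) and Shmt2 (195 and 393 TPM) were higher in replicate 2, and Npm1, Ncl, Hspd1, Nop58 and Dkc1 were lower, with log2 ratios from -1.32 for Npm1 to -1.06 for Dkc1. None of the 7 was called with the GC trend removed.

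The list of MIZ1 and genes that MYC is known to repress had a lower median than the activated genes. Of 9 genes, 7 were detected, with a median of 21.1 TPM, near that of detected protein-coding genes. MIZ1 itself, encoded by Zbtb17, was at 20.4 and 47.2 TPM and was called higher in replicate 2 (log2 1.04, and 0.26 with the GC trend removed, not called). Ndrg2 was at 31.8 ± 5.78 TPM (SD, n = 2) and Gadd45a at 29.4 ± 1.88. The cell cycle inhibitor Cdkn2b was at 0.930 and 1.44 TPM, and Gas1 had 0 counts. No sample with lower MYC was measured, so these levels do not show regulation.

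Other factors with a basic helix-loop-helix zipper that bind E-boxes were detected for 8 of 9, with a median of 32.9 TPM. Srebf1, of lipid synthesis, was at 99.4 and 184 TPM, Usf2 at 80.9 ± 37.1 (SD, n = 2) and Srebf2 at 49.9 ± 20.4. Mitf was at 1.94 and 1.25 TPM, and Tfec had 0 counts. Srebf1 and Tfeb (8.56 and 17.3 TPM) were called higher in replicate 2, and neither with the GC trend removed. None of these factors reached the level of Myc in either replicate.

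**Figure D4:**
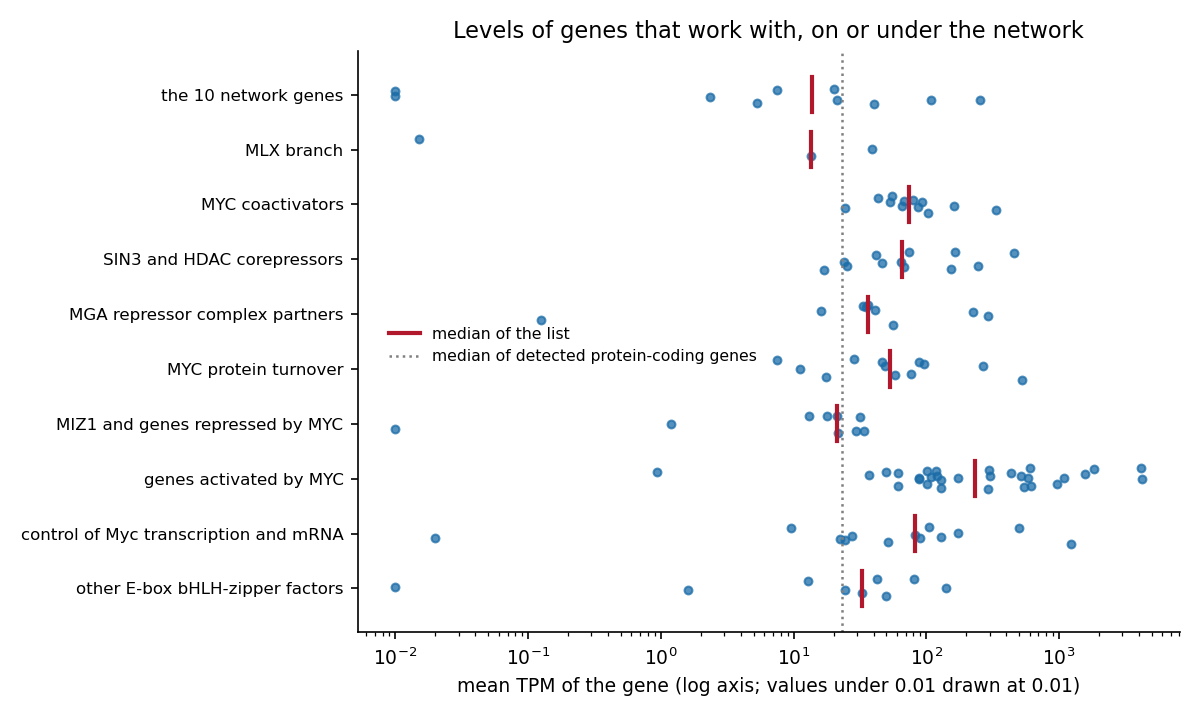
Mean TPM (log axis, values under 0.01 drawn at 0.01) of each gene of the 10 lists as a point, spread vertically for sight only, with the median of each list in red and the median of detected protein-coding genes as a dotted line. The genes activated by MYC have the highest median, at 234 TPM, and the network genes span from 0 counts to 256 TPM for Myc.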

How the data were processed

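RNA of MEL cells was measured by single-end sequencing of polyadenylated RNA in 2 biological replicates. Reads were quantified on mm10 with GENCODE M4, per the accompanying text and file headers, with no aligner, quantifier or strand setting given in the sources used here. The deposited expected counts are model estimates of the reads of each gene or transcript. For TPM and FPKM the authors divided by effective length and scaled to the library, the deposited percent values give each transcript's part of its gene, and the deposited score columns hold posterior SDs and bounds of TPM.

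Symbols and structures came from GENCODE M21 by identifier (42462 of 43346 genes), and promoters from RefSeq. Features that are no genes (0.0574% and 0.131% of counts) were left out. Counts were rounded, and genes with 20 or more counts over both libraries were tested (TMM, edgeR 4.0.16; scipy 1.17.1). The GC trend came from lowess (fraction 0.3, statsmodels 0.14.6). Ratios used a pseudocount of 0.1 TPM. The replicate comparison and the GC trend were run on simulated counts with set changes and counting error only. Those counts lack the wider spread between these libraries, and the other steps were not simulated. Named genes are all members, the 3 highest and 2 lowest of each list, those called, and transcripts with at least 5% of a gene. Members and lists were chosen with earlier results of these data known. The alternatives were other minimums, FPKM, posterior means, DESeq2 1.42.0 size factors, library totals, protein-coding genes alone, GC removal and each replicate left out. Values of some single listed genes are left out of the text.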

Additional observations from a re-analysis of the deposited data

How the results depend on the processing

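Members detected stayed at 8 with a minimum of 0.5 TPM or 1 FPKM and came to 6 at 5 TPM. Removal of the GC trend brought the members called between replicates from 2 to 0. Over all genes it brought the calls from 3011 of 15251 tested to 1242 of 15102. Protein-coding genes alone gave 1875 of 11838 tested. By the ratio of TPM in place of counts, chosen after seeing the data and with no test, 0 members reached 2-fold. The log2 ratio of the repressors over the MYC family moved from -1.41 to -1.76 with coding transcripts alone and to -2.85 with the MXD genes alone. The log2 count ratio turned with the GC trend removed for Myc (-0.26), Mxi1 (0.19) and Mxd1 (-0.00313), and in TPM for Mga (0.38); the cause was not tested. Posterior mean TPM put Mycn at 0.045 and Mycl at 0.125 in place of 0. Without replicate 1 or 2 the level of Myc ranged from 221 to 290 TPM, the log2 ratio of Myc over Max from 0.92 to 1.56 and that of the repressors over the MYC family from -1.44 to -1.38. Library totals moved every log2 count ratio by 0.11 and DESeq2 size factors by 0.02. Of the genes called, 40.8% were higher in replicate 2 with TMM, 43.8% with DESeq2 size factors and 54.4% with library totals. No paired analysis was possible because the samples form 1 group. With 2 libraries, SDs are themselves uncertain.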

Other observations

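Genes related to Myc by sequence or place were looked at after the other values were known, so they are given as values only. Bmyc and Mycs, rodent genes that resemble Myc, had 0 counts in both replicates. Pvt1, the noncoding neighbour of Myc, measured 131 TPM in replicate 1 and 78.1 TPM in replicate 2, from 7116 and 5435 counts (log2 count ratio -0.73), and has a GC content of 45.9%. In replicate 1 it stood above Max, and in replicate 2 below it.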
